A study of Mus musculus with 8 samples.

Results

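The short noncoding RNAs of the lncRNA table, those with an annotated length below 200 nt, were described in cardiac EVs after myocardial ischemia-reperfusion. A transcript was taken when the length column of its first row gave less than 200 nt. This rule took 6746 of the 31549 transcripts, with lengths of 18 to 199 nt and a median of 38 nt. The remaining 24803 transcripts were 200 nt or longer. No measured value entered the choice.

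Extracellular vesicles (EVs) are membrane particles that cells shed and that carry RNA and protein. They were isolated from the left ventricles of male C57BL/6J mice, 10 weeks old, by collagenase digestion and ultracentrifugation. In the IR group the left anterior descending coronary artery was tied for 45 min and then reopened for 24 h. The sham group was operated on without this injury. Each group held 4 mice with 1 total RNA library per mouse, depleted of ribosomal RNA, and no genetic change was made in either group. In such bulk libraries, fewer vesicles of a kind and less of an RNA per vesicle cannot be told apart.

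The libraries held 805181 to 1716355 lncRNA fragments in the IR group and 1276566 to 1842824 in the sham group. The mRNA table of the same libraries held 13824430 to 18501745 fragments in IR and 15908949 to 22497256 in sham. A fragment is 1 sequenced read pair. Of 15 cardiomyocyte marker genes, 5 were listed at 0 in every library (Csrp3, Mb, Myl2, Nppa and Nppb), and the summed FPKM (fragments over transcript length and library size) of the list was 5.67 to 8.29 in IR and 7.71 to 13.4 in sham. All 13 enterocyte markers were above 0, with summed FPKM of 24631 to 36294 in IR and 21588 to 26838 in sham. The median FPKM of these 13 markers was 1460 to 1835 in IR and 1150 to 1208 in sham, so it was higher in every IR library. Markers of another tissue thus stood far above those of the labelled one, and the part of this in any result below was not tested.

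Small noncoding RNAs of this size act mostly as parts of ribonucleoproteins. Y RNAs are RNA polymerase III transcripts whose stem binds the Ro60 protein (gene Trove2) and whose run of U at the 3′ end binds the La protein (gene Ssb). They take part in RNA quality control and in the start of DNA replication. The vault RNA is an RNA polymerase III transcript inside the vault particle, which is built from the proteins Mvp, Parp4 and Tep1. Small nucleolar RNAs (snoRNAs) are mostly cut from introns of host genes and guide changes of ribosomal RNA bases. The C/D box class works with the methylase fibrillarin (Fbl), and the H/ACA box class with the pseudouridine synthase dyskerin (Dkc1). Small nuclear RNAs form the core of the spliceosome.

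By symbol, RefSeq type or biotype column, few of the 6746 transcripts were recognized as one of these textbook classes. No spliceosomal small nuclear RNA was recognized among them, and 6 were recognized as snoRNAs. There were 2 Y RNAs, 1 vault RNA, 66 miRNA precursors, 10 copies of 4.5S RNA and 4 records of the neuronal RNA Bc1. Most of the others were grouped by their record name alone, and no role was assigned to them here. Whether they include further snoRNAs or other textbook RNAs was not tested. They comprised 4496 DQ, 948 AB, 192 JA and 130 AK records, 527 assembled transcripts (TCONS), 47 misc_RNA with a Gm name and 140 misc_RNA named after a stretch of a longer RNA. The other 177 transcripts fell in none of these classes. By the biotype column, 6519 were called long_noncoding, 190 misc_RNA, 13 antisense and 13 lincRNA.

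The pair of Y RNAs is shown because both were the most abundant short RNAs that were alone in their locus. Sequences follow GENCODE on GRCm38 (mm10), 5′ to 3′, and the capitals mark the runs of at least 8 bases that both share when aligned. Rny3 lies at chr6:47781624-47781725 on the plus strand and is 102 nt long. Rny1 lies at chr6:47788069-47788180 on the minus strand and is 112 nt long.
Rny3: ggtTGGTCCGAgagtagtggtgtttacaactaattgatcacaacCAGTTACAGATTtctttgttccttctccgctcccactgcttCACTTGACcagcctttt
Rny1: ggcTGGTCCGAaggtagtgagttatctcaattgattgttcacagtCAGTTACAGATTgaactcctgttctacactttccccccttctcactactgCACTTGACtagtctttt

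Rny3 and Rny1 were identical at 80 of 112 aligned columns (71.4%). The 3 shared runs covered 28 bases, the longest of 12 bases. Folding with RNAfold paired the first and last 25 bases of Rny3 by 18 base pairs and those of Rny1 by 15. Both ended in 4 T. The genes face each other across 6343 bases, and the processed pseudogene Rpl31-ps7 is annotated in between. The protein-coding gene Pdia4 lies 7960 bases beyond Rny1. At 90% identity over 90% of the length or more, Rny3 matched 1 place in the genome, its own, and Rny1 matched 3. Fragments of Rny1 and of a near copy could therefore be confused, depending on how multiple alignments were counted, which is not given in the sources used here.

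A few snoRNAs are shown to set the one with most fragments beside examples without a fragment. Gm12238 (chr11:55482706-55482829, plus strand, in an intron of G3bp1) matches the small nucleolar RNA that RefSeq names Mbi-39, and the capitals mark ACA, 3 bases before its 3′ end. Snord43 (chr15:80082859-80082906, minus strand, in an intron of the ribosomal protein gene Rpl3) and AF357426 (chr12:109642838-109642904, plus strand, in an intron of the noncoding RNA Rian) are marked at the D box (CTGA) and, in AF357426, at the C box (TGATGA).
Gm12238: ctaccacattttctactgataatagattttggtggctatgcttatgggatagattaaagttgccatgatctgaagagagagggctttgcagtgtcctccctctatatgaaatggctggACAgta
Snord43: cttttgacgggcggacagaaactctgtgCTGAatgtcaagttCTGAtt
AF357426: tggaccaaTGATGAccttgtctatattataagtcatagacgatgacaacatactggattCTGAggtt

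A sequence was at hand for 269 of the 6746 transcripts. In these 269, the sense strand held TGATGA in 4.09%, CTGA in 46.1%, the H box ANANNA in 73.6%, and ACA at 3 bases before the end in 2.97%. The short letters of the D and H boxes thus occurred in many RNAs that were not classed as snoRNAs. Of the 4 snoRNAs with a sequence, 1 held TGATGA and all 4 held CTGA. Snord43 and AF357426 had no fragment in any library.

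Detection came first. A transcript counted as detected when at least 1 library held at least 1 fragment after rounding. Of the 6746 short transcripts, 83 were detected (1.23%) and 6663 (98.8%) were not. Of the 24803 longer transcripts, 12354 (49.8%) were detected. Zero fragments in a library allow up to 3 fragments, or 1.63 to 3.73 in 1000000 lncRNA fragments depending on the library, by counting error alone. Only 24 short transcripts averaged at least 1 fragment over the 8 libraries, 6 averaged at least 10, and 8 had a fragment in every library.

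Detection followed length. None of the 4422 transcripts of 18 to 50 nt had a fragment, and 3 of the 6003 transcripts of 100 nt or less did. Between 101 and 199 nt, 80 of 743 (10.8%) were detected. The share was 5.19% at 101 to 125 nt, 9.36% at 126 to 150 nt, 16.6% at 151 to 175 nt and 14.1% at 176 to 199 nt. The next class, 200 to 250 nt, reached 24.2%, and transcripts over 1000 nt reached 60.1%. The detected short transcripts had a median length of 160 nt, and the shortest was the snoRNA AF357376 with 58 nt.

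**Figure D1:**
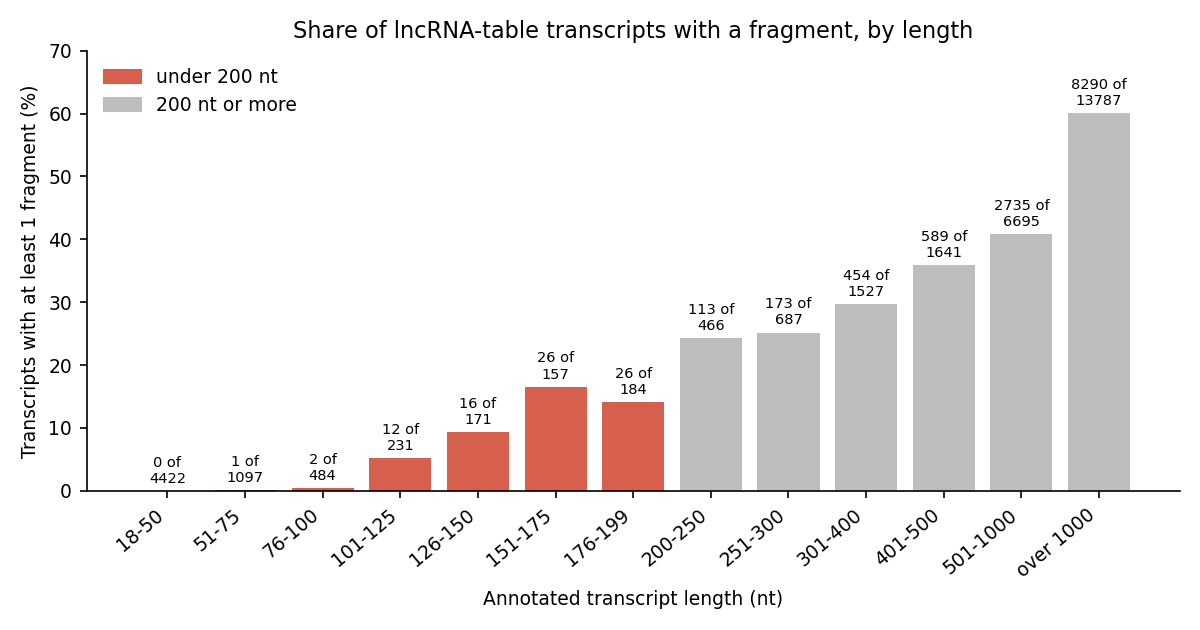
Share of transcripts of the lncRNA table with at least 1 fragment in at least 1 of the 8 libraries (%), by annotated length (nt), with the number detected and the total above each bar. Red bars stand for transcripts below 200 nt and grey bars for longer ones. No transcript of 18 to 50 nt was detected, against 60.1% of those over 1000 nt.

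The class of a transcript also went with its detection. Both Y RNAs and the vault RNA were detected, as were 2 of 6 snoRNAs and 30 of 130 AK records. The miRNA precursors gave 1 of 66, Mir1940, with 2 fragments in IR 1 and none elsewhere. AB records gave 1 of 948, AB033524, with 2 fragments in sham 2. None of the 4496 DQ records, 192 JA records, 10 4.5S copies or 4 Bc1 records was detected. The 4.5S and Bc1 RNAs are RNA polymerase III transcripts of rodents. Of the misc_RNA named after longer RNAs, 15 of 140 were detected, and of the 47 with Gm names, none. By sequence, 19 of these 47 were most like Rny1, 16 like Rn7sk and 1 like Vaultrc5.

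By position relative to genes, 39 of 199 transcripts that overlap an exon in sense were detected (19.6%). The share was 5.58% for those in introns in sense (12 of 215) and 0.434% for intergenic ones (25 of 5758). These positions also differed in length, with medians of 137 nt for exon overlap in sense, 44 nt for introns in sense and 38 nt for intergenic transcripts, and the part of length in these shares was not tested. Of the 83 detected transcripts, 13 were the only lncRNA or gene in their locus, and of the 24 with a mean of at least 1 fragment, 4 were (Rny3, Rny1, AK217854 and XLOC_001887). A locus in the files is a block of overlapping annotation, so the fragments of most detected transcripts came from blocks that they share with a protein-coding gene or a longer lncRNA. AK197973, for example, shares its block with Malat1, which averaged 148895 fragments, and KCNQ1OT1_2 with Kcnq1ot1, which averaged 746.5. How fragments were divided within a block was not tested.

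The 83 detected transcripts held 6411 fragments over all libraries. These were 690, 1056, 642 and 656 fragments in IR 1 to 4, against 514, 511, 1142 and 1200 in sham 1 to 4. The vault RNA Vaultrc5 alone held 72.2% of them, and the 6 most abundant transcripts held 92.0%. In no library did short transcripts make up more than 0.0857% of the lncRNA fragments.

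FPKM placed the same transcripts far higher. They took 6.51 to 10.05% of the summed FPKM of the lncRNA table in IR and 4.97 to 5.94% in sham. The gap lies in the length that FPKM divides by. The deposited counts and FPKM gave the same slope in every library, so the effective length behind each FPKM could be computed. It lay below the annotated length, and further below it the shorter the transcript. The median effective length was 39.8 nt (21.2% of the annotated length) at 176 to 199 nt, 11.3 nt (7.94%) at 126 to 150 nt and 1.25 nt at 101 to 110 nt. At 501 to 1000 nt it was 76.7% of the annotated length.

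**Figure D2:**
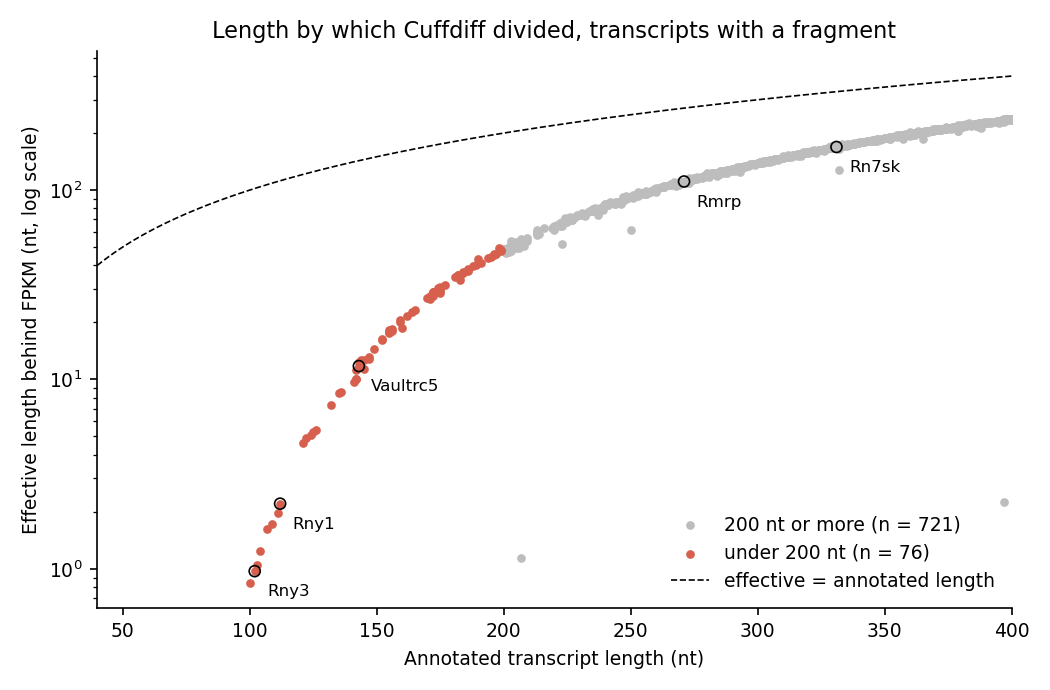
Effective length behind the deposited FPKM (nt, log scale) against annotated length (nt) for transcripts of up to 400 nt, as the mean over libraries with a value. Red points are the transcripts below 200 nt and grey points the longer ones, and the dashed line marks equality. Rny3, of 102 nt, sits near an effective length of 1 nt, below 11.3 nt as the median at 126 to 150 nt.

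The ranks of single RNAs moved with this length. Rny3 ranked 1035 of 31549 by fragments, 7 by FPKM (mean 3425) and 63 when FPKM was computed over the annotated length (33.2). Rny1 ranked 2156 by fragments, 19 by FPKM and 188 over the annotated length. Vaultrc5, at 143 nt, ranked 142 by fragments, 9 by FPKM (mean 2320) and 24 over the annotated length (192.1). The snoRNA AF357376 ranked 26 by FPKM on a single value, a deposited count of 0.749 in IR 1 that gave 2175 FPKM. By fragments it ranked 12448. A high FPKM among these RNAs therefore stood for anything between the 1 fragment of AF357376 and the 2072 fragments in IR and 2559 in sham of Vaultrc5.

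The question of the study was how cardiac EV RNA differs after IR. The comparison was made with edgeR on the fragments of all 3088 lncRNAs whose FPKM averaged 0.5 or more. A call needed a Benjamini-Hochberg adjusted p below 0.05 and a fold change over 2. Of the short transcripts, 61 were tested, and 54 of them averaged fewer than 5 fragments and 37 fewer than 1. None was called, nor was any of the 3088 lncRNAs (0%). DESeq2 called 15 of the 3088, no short transcript among them. At an unadjusted edgeR p below 0.05 stood 6 of the 61 short transcripts (9.84%), 5 higher and 1 lower in IR, against 7.06% of all lncRNAs tested (218, of which 133 were higher and 85 lower). Only 3 of the 61 passed without IR 2 and 3 without sham 2. Every IR level lay above every sham level for 4 of the 61, against 3.08% of all lncRNAs, and every IR level lay below for none, against 2.14%. The log2 fold change was above 0 for 34 and below 0 for 27, with a median of 0.43 that became 0 without IR 1. The median over all lncRNAs was 0.01.

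Rny3 was the short RNA with the smallest p. It had 79, 89, 85 and 72 fragments in IR 1 to 4, against 49, 34, 67 and 68 in sham 1 to 4. After scaling by TMM, the normalization of edgeR, its levels were 72.0, 63.4, 74.1 and 56.4 CPM in IR, against 35.6, 26.2, 36.6 and 40.3 CPM in sham, where CPM are fragments scaled to a lncRNA library total of 1000000. All 4 IR libraries lay above all 4 sham libraries. The means were 66.5 ± 8.16 in IR and 34.7 ± 6.03 in sham (SD, n = 4 each), a log2 fold change of 0.94 (SE 0.19, 95% interval 0.56 to 1.31) or 1.91-fold. Its edgeR p of 0.000949 ranked 8 of the 3088 and gave an adjusted p of 0.366. DESeq2 gave a log2 fold change of 0.92 (SE 0.22) with an adjusted p of 0.013, below the fold threshold. Over the alternatives the adjusted p ran between 0.013 and 0.775 (edgeR, DESeq2 and limma).

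The FPKM of Rny3 was 4288, 3649, 4492 and 3824 in IR, against 3283, 2399, 2650 and 2812 in sham. The groups did not overlap here either, with a difference of 0.55 on the log2 scale. The exact two-sided permutation p was 0.0286, the smallest that 4 against 4 libraries allow. It was computed only where groups did not overlap, so it restates this separation. The effective length itself differed, at 1.06, 1.10, 1.05 and 1.08 nt in IR, against 0.785, 0.747, 0.943 and 1.02 nt in sham. FPKM over the annotated 102 nt was 42.7 ± 3.27 in IR and 23.8 ± 4.44 in sham (SD, n = 4 each). For the longer short RNAs the effective lengths overlapped, at 2.27 to 2.51 nt in IR and 1.79 to 2.31 nt in sham for Rny1, and at 11.7 to 13.2 nt in IR and 10.5 to 12.3 nt in sham for Vaultrc5. The part of the effective length in the Rny3 difference was not tested.

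**Figure D3:**
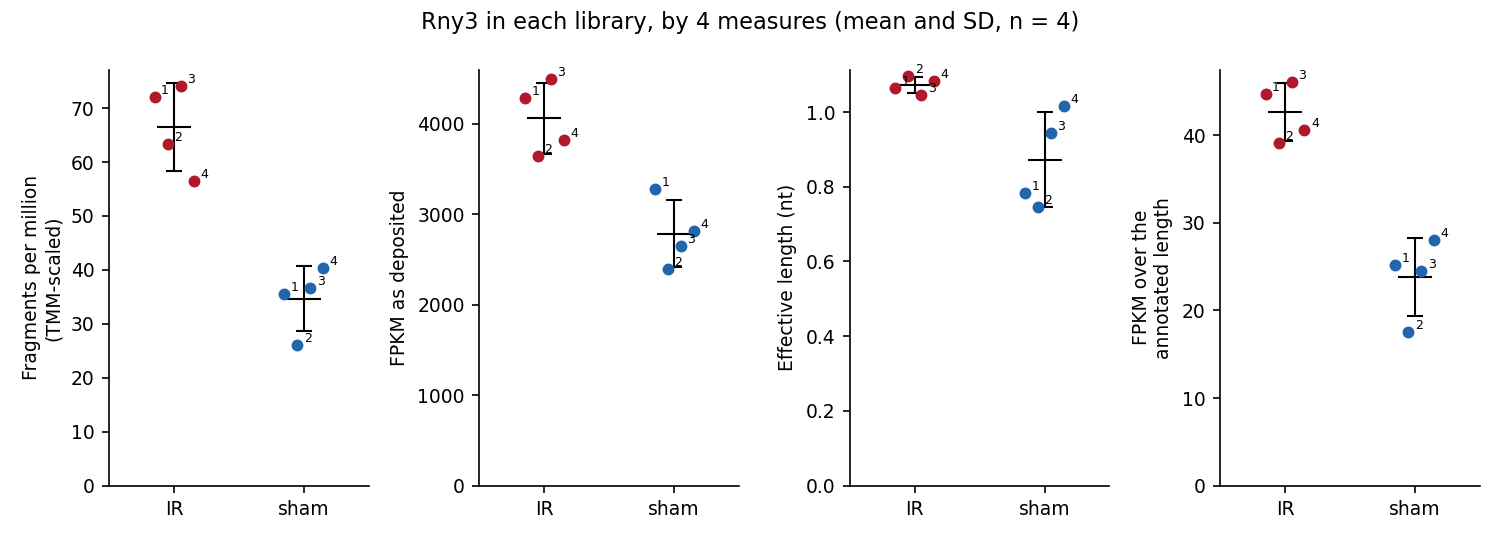
Rny3 in each library by TMM-scaled fragments in 1000000, deposited FPKM, effective length (nt) and FPKM over the annotated 102 nt, with IR in red left of sham in blue, replicate numbers beside the points, and bars for the mean and SD of 4 libraries. The groups do not overlap by any of these measures, including an effective length of 1.05 to 1.10 nt in IR and 0.747 to 1.02 nt in sham.

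Rny1 spread more widely. It had 54, 32, 23 and 5 fragments in IR, against 13, 8, 25 and 31 in sham. Its levels were 49.2, 22.8, 20.1 and 3.92 CPM in IR, against 9.45, 6.16, 13.6 and 18.4 in sham, so the highest and the lowest library were both IR. The log2 fold change was 0.99 (SE 0.64, 95% interval -0.28 to 2.25; edgeR adjusted p = 0.802), and 0.35 without IR 1. Both Y RNAs together stood at 90.5 ± 25.1 CPM in IR and 46.6 ± 11.1 in sham (SD, n = 4 each).

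The mRNAs of the Y RNA binding proteins showed no difference of this size. Trove2, which encodes Ro60, was at 1.60 ± 0.280 FPKM in IR and 1.73 ± 0.202 FPKM in sham, with a log2 fold change of 0.05 (95% interval -0.21 to 0.30; edgeR adjusted p = 0.925). Ssb, which encodes La, was at 34.0 ± 4.65 FPKM in IR and 39.4 ± 5.33 FPKM in sham, with a log2 fold change of -0.01 (95% interval -0.20 to 0.18). On the FPKM scale the median over all mRNAs lay at -0.10, which the TMM scaling behind the fold changes removes.

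Vaultrc5 was the most abundant short RNA and differed little between groups. It lies on chromosome 18 (36801866 to 36802008, plus strand, GRCm38). At 90% identity over 90% of the length or more, it matched 2 places in the genome, including its own. Fragments of Vaultrc5 and of a near copy could therefore be confused, as for Rny1. Vaultrc5 had 471, 755, 404 and 442 fragments in IR, against 349, 362, 888 and 960 in sham. Its levels were 430, 538, 352 and 346 CPM in IR, against 254, 278, 485 and 569 in sham. The sham group held both the lowest pair and, with 569, the highest value. The means were 416 ± 89.6 in IR and 397 ± 155 in sham (SD, n = 4 each). The log2 fold change was 0.07 (SE 0.28, edgeR adjusted p = 0.989), and its 95% interval of -0.49 to 0.63 leaves room for changes of some size either way. Its sign was negative without IR 2, sham 1 or sham 2, and on the FPKM scale (-0.09).

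The mRNAs of the vault proteins had log2 fold changes whose 95% intervals included 0. Mvp, the major vault protein, was at 82.9 ± 11.8 FPKM in IR and 103 ± 6.51 FPKM in sham, with a log2 fold change of -0.23 (95% interval -0.46 to 0.00; edgeR adjusted p = 0.547). Its FPKM was below all sham libraries in every IR library, while its TMM-scaled levels overlapped. The exact two-sided permutation p of 0.0286 for its FPKM only restates this separation. The telomerase-associated protein Tep1 had 0.20 and the poly-ADP-ribose polymerase Parp4 had 0.07.

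Without the vault RNA, the short transcripts together stood at 199, 215, 207 and 168 CPM in IR, against 120, 115, 139 and 142 in sham. After TMM scaling, these sums did not overlap and had means of 197 ± 20.6 in IR and 129 ± 13.7 in sham (SD, n = 4 each). Rny3 gave 66.5 of the IR mean and 34.7 of the sham mean. With the vault RNA, the sums were 614 ± 104 in IR and 525 ± 168 in sham, and they overlapped. Scaled by the lncRNA library total alone, without TMM, the sums without the vault RNA were only narrowly apart. The lowest in IR was 143.6 (IR 3) and the highest in sham was 141.4 (sham 4). With Rny3 left out too, the groups overlapped by this scaling, with 92.2 in IR 3 and 101.6 in sham 3. How often such sums separate by chance was not tested.

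**Figure D4:**
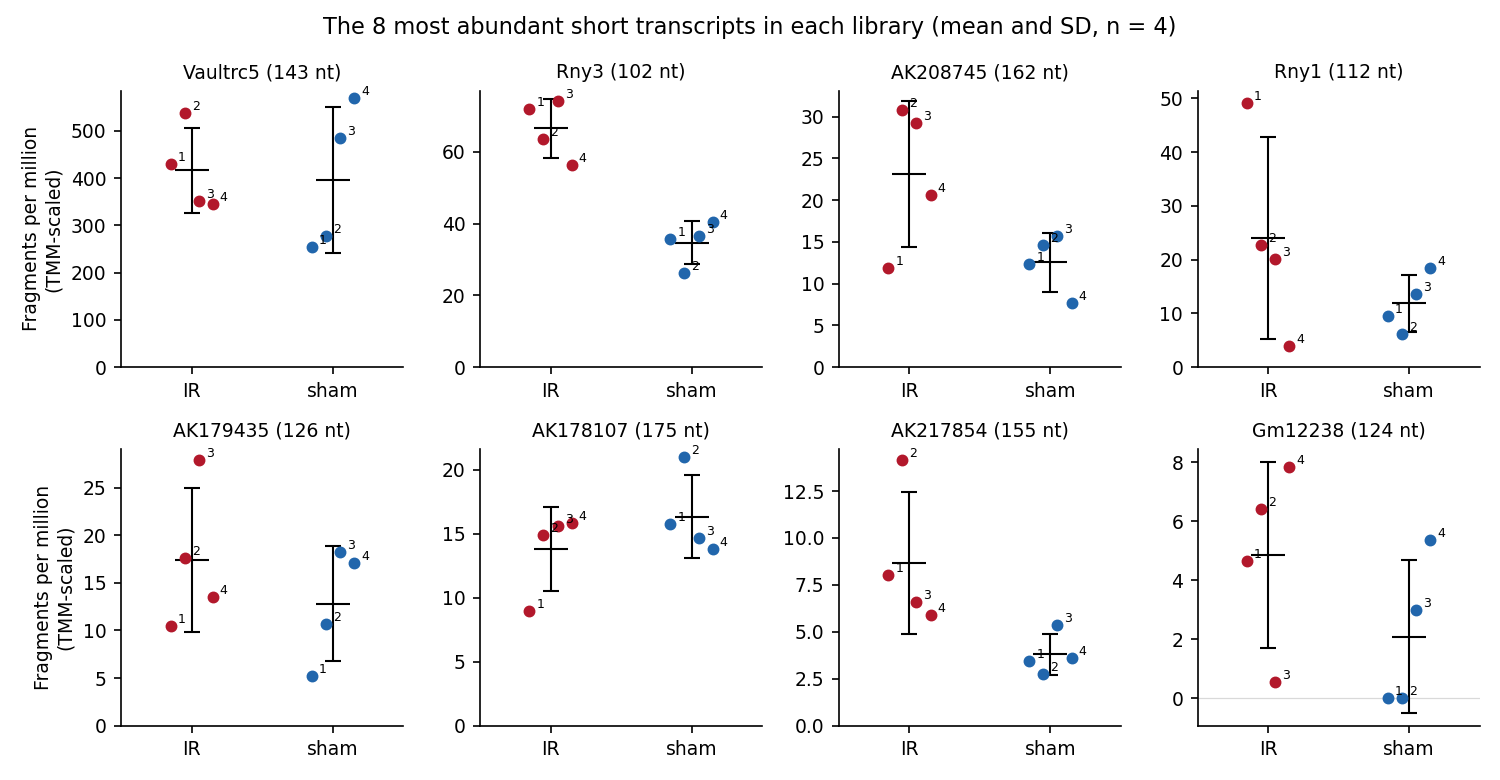
TMM-scaled fragments in 1000000 lncRNA fragments (CPM) of the 8 most abundant short transcripts in each library, with IR in red left of sham in blue, replicate numbers beside the points, and bars for the mean and SD of 4 libraries. Only Rny3 and AK217854 keep all IR libraries above all sham libraries, and Vaultrc5 overlaps widely.

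Among the AK records, AK217854 (155 nt, uc007beu.1) was the only abundant one alone in its locus (chromosome 1, 60703918 to 60705656). It had 9, 20, 8 and 8 fragments in IR, against 5, 4, 10 and 6 in sham. Its levels of 8.04, 14.2, 6.59 and 5.89 CPM in IR all exceeded the 3.47, 2.75, 5.37 and 3.59 in sham. The log2 fold change was 1.16 (SE 0.40) with an edgeR p of 0.0194 and an adjusted p of 0.699, so the difference did not pass the test over all lncRNAs.

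The 3 most abundant AK records overlap exons of protein-coding genes, and their values are set beside those genes. AK208745 (162 nt) lies over Ap2s1, which encodes a subunit of the clathrin adaptor AP-2. It had 13, 43, 34 and 26 fragments in IR, against 17, 19, 29 and 13 in sham, a log2 fold change of 0.87 (SE 0.36) with an edgeR p of 0.0408 and an adjusted p of 0.699. Ap2s1 itself was at 54.2 ± 6.03 CPM of the mRNA table in IR and 56.1 ± 2.60 in sham (log2 fold change -0.05). IR 1 lay among the sham libraries for this record, so its groups overlapped.

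AK179435 (126 nt) lies over Atp6v0a2, a subunit of the vacuolar proton pump. It had 12, 25, 32 and 17 fragments in IR, against 7, 14, 33 and 29 in sham, with a log2 fold change of 0.44 (SE 0.45, edgeR adjusted p = 0.880). The longer record AK160318 in the same block averaged 746.6 fragments. AK178107 (175 nt) lies over Aldh2, the mitochondrial aldehyde dehydrogenase. It had 10, 21, 18 and 20 fragments in IR, against 22, 27, 27 and 23 in sham, with a log2 fold change of -0.22 (SE 0.27, edgeR adjusted p = 0.914). Atp6v0a2 and Aldh2 had log2 fold changes of 0.07 and 0.08.

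The snoRNA Gm12238 had 5, 9, 1 and 10 fragments in IR, against 0, 0, 5 and 9 in sham. Its log2 fold change of 1.19 had an SE of 1.02 (edgeR adjusted p = 0.851), so no difference could be detected at this depth. Its host gene G3bp1, which encodes a stress granule protein, stood at 111 ± 11.0 CPM of the mRNA table in IR and 126 ± 30.1 in sham (log2 fold change -0.19).

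The other short RNAs with an unadjusted edgeR p below 0.05 rested on few fragments. The short record named Klhdc2 (uc007nsc.1) had none in the IR libraries and 2, 0, 8 and 4 in sham, and was the 1 lower in IR. XLOC_025744 had 2, 0, 2 and 1 fragments in IR and none in sham. BC116202 (uc029siw.1, 107 nt) had 1, 3, 1 and 1 in IR, against 0, 0, 0 and 1 in sham, and lies in the block of Rpph1, the RNA of ribonuclease P, which averaged 48204 fragments. M13680 did not reach that threshold, with an edgeR p of 0.0533 and an adjusted p of 0.707, although its IR levels all exceeded its sham levels. It had 1, 9, 2 and 1 fragments in IR, against 1, 1, 0 and 1 in sham, and it shares its block with an immunoglobulin heavy chain record of 790 fragments. The most abundant TCONS transcripts were XLOC_012087, with 1, 1, 3 and 1 fragments in IR and 7, 5, 2 and 6 in sham, and XLOC_001887, with 2, 5, 0 and 2 in IR and 2, 2, 3 and 1 in sham.

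Small RNAs just above the length limit were measured with far more fragments. Rn7sk (331 nt), the 7SK RNA that restrains transcription elongation, was at 11394 ± 1428 FPKM over its full length in IR and 11080 ± 2907 in sham, with a log2 fold change of 0.14 (SE 0.21, edgeR adjusted p = 0.945). Rpph1 (319 nt) was at 6648 ± 579 in IR and 8043 ± 801 in sham (log2 fold change -0.17, edgeR adjusted p = 0.833). Rmrp (271 nt), the RNA of ribonuclease MRP, was at 5348 ± 538 in IR and 6279 ± 827 in sham (log2 fold change -0.14, edgeR adjusted p = 0.868). Another entry of Rpph1 (325 nt), with fewer fragments, had -0.37 (edgeR adjusted p = 0.726), and its FPKM was below all sham libraries in every IR library. Another entry of Rmrp (275 nt) had -0.28 (edgeR adjusted p = 0.758). By the same measure over full length, Rny3 averaged 33.2 and Vaultrc5 192.1 FPKM. These 3 RNAs are also RNA polymerase III transcripts, and their effective lengths lay above 100 nt.

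The proteins and host genes that work with short RNAs were read from the mRNA table, where edgeR called none of 12716 genes (0%) and DESeq2 called 40, none of them in these lists, and where 9.73% had an unadjusted edgeR p below 0.05 (619 higher and 618 lower in IR). Of the 18 gene names listed for snoRNP core proteins, 17 were found in the mRNA table, and all 17 were tested. All 17 had a log2 fold change below 0, 2 had an unadjusted edgeR p below 0.05, and the median was -0.38, against 0.00 over all mRNAs. Their number below 0.05 was 0 without IR 2, IR 3 or sham 1, 1 without sham 2, 4 without IR 4 and 7 without sham 3, and the median was -0.20 without sham 1. The median enterocyte marker level was higher in every IR library, while this list and the next lay below 0. The part of the markers in these lists was not tested. Nop56, a core protein of the C/D box class, was at 21.5 ± 7.44 FPKM in IR and 38.8 ± 10.6 FPKM in sham (log2 fold change -0.51, edgeR adjusted p = 0.480), and Dkc1 at 15.4 ± 2.63 FPKM in IR and 22.8 ± 5.57 FPKM in sham (-0.39, edgeR adjusted p = 0.512). Fbl had -0.40, Ruvbl2, a helicase of snoRNP assembly, -0.37, and the assembly factor Znhit3 -0.56.

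Of the genes that carry snoRNAs in their introns, 31 were tested in the mRNA table. All 31 lay below 0 with a median of -0.34, and 14 (45.2%) had an unadjusted edgeR p below 0.05, none with an adjusted p below 0.05. This count was 4 without sham 1, 6 without IR 2, 7 without IR 3, 8 without sham 4, 9 without IR 1 and 22 without IR 4. Many of these hosts encode ribosomal proteins. Rps12 was at 390 ± 116 FPKM in IR and 665 ± 136 FPKM in sham (log2 fold change -0.67, edgeR adjusted p = 0.455), Rps20 had -0.54 and Rpl5 -0.44. Rpl7a had the smallest p of the list and was at 61.5 ± 11.9 FPKM in IR and 130 ± 27.7 FPKM in sham (edgeR adjusted p = 0.439; DESeq2 adjusted p = 0.00045). Nop56 and Dkc1 belong to both lists.

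The spliceosomal snRNP proteins counted 7 of 36 above and 29 below 0, with a median of -0.17 and 3 with an unadjusted edgeR p below 0.05, all lower. These were Lsm11 of the U7 particle (-0.55), and the Sm ring proteins Snrpd2 (-0.54) and Snrpg (-0.70). The count was 1 without IR 3 or sham 1 and 8 without sham 3, all lower. Without IR 4 it was 6 lower and 1 higher. The median was -0.10 without sham 1. Snrnp70, a U1 protein, was at 7.55 ± 1.27 FPKM in IR and 10.4 ± 0.889 FPKM in sham (-0.34). The list of small RNA processing and transport counted 17 of 43 above and 26 below 0, with a median of -0.09, which was 0.00 without sham 1. Its 5 genes with an unadjusted edgeR p below 0.05 were all lower, 4 of them subunits of RNA polymerase III, and 3 genes passed when IR 1, IR 2 or IR 3 was left out. Polr3d was at 1.94 ± 0.152 FPKM in IR and 3.22 ± 0.730 FPKM in sham, without overlap (-0.61, SE 0.18, edgeR adjusted p = 0.455). Polr3f had -0.40, Polr3e -0.31 and Polr3g -0.76.

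**Figure D5:**
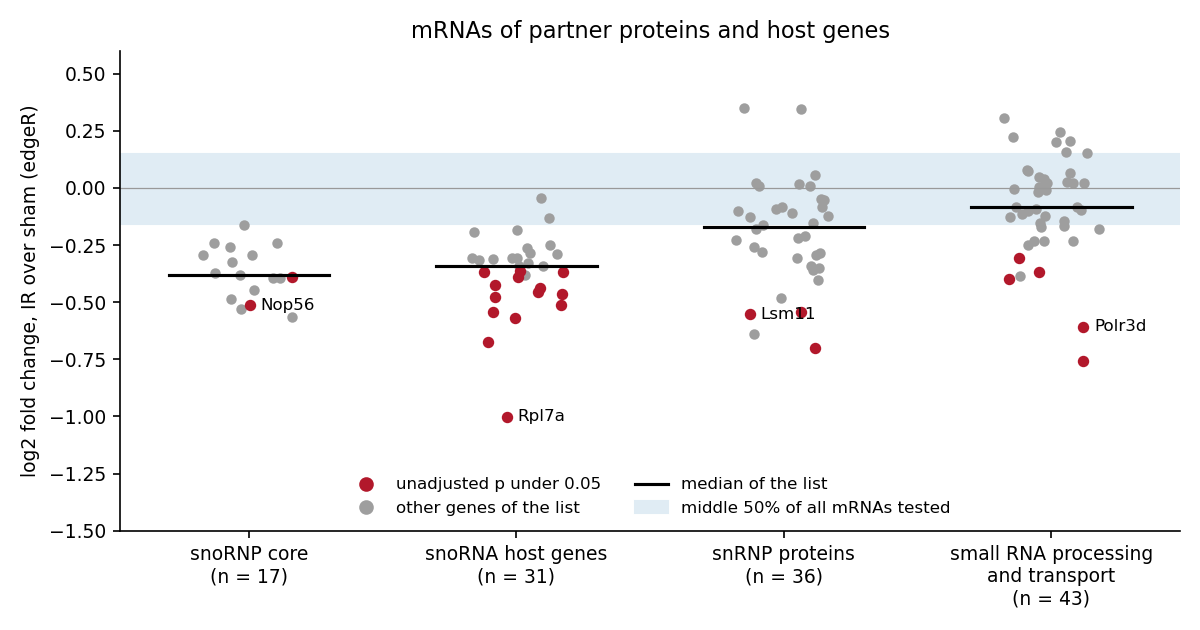
Log2 fold change of IR over sham (edgeR, mRNA table) for the genes of the 4 partner lists, 1 point per gene. Red points have an unadjusted p below 0.05, black bars are list medians, and the blue band holds the middle 50% of all mRNAs tested, with a median of 0.00. All 17 snoRNP core genes and all 31 snoRNA host genes lie below 0, and none passed the adjusted test.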

How the data were processed

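Total RNA of EVs from 4 IR and 4 sham left ventricles was sequenced on both ends after ribosomal depletion with a strand-specific kit. The authors used cutadapt 1.9.3 for trimming, HISAT2 for alignment to mm10, and Cuffdiff for quantification. The FPKM deposited by the authors divide by an effective length. The estimated counts deposited by the authors are fragments times 1 factor per library (0.763 to 1.18, the most frequent value), which was divided out before rounding to whole fragments. The annotation version and the strand setting are not given in the sources used here. Columns of the authors' own comparison were not used.

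All tests were fitted over the whole table (mean of at least 0.5 FPKM) with edgeR 4.0.16 in R 4.3.3, by the quasi-likelihood test with TMM scaling, robust dispersions and Benjamini-Hochberg adjustment. The TMM factors were 0.704 to 1.41 in the lncRNA table and 0.886 to 1.09 in the mRNA table, and the biological coefficient of variation was 47.2% and 22.0%. DESeq2 1.42.0, limma 3.58.1 on log2(FPKM + 0.1) or log2(FPKM + 1), other scalings and filters, the replicate number as a block and leaving out each library were alternatives. The scripts were tested on simulated data. Sequences came from GENCODE M21 and RefSeq on GRCm38, copies from blastn 2.17.0, folds from RNAfold 2.7.2. Motifs were searched on the sense strand. Intervals and zero limits cover counting error only, or the spread between these libraries.

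Named transcripts were the up to 4 with most fragments in each class, those with a mean of at least 10 fragments by smallest p, and their host genes. Of each partner list the up to 4 genes with the smallest p were named. The binding proteins of the Y and vault RNAs, the shortest detected RNA and transcripts with an unadjusted p below 0.05 were added after their values were seen. The transcripts and lists were chosen with earlier results of these data known.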

Additional observations from a re-analysis of the deposited data

Results flagged for a closer look

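In 3 of the 48 groups of 4 libraries looked at, 1 library stood apart from the rest by more than Dixon's critical value at 95%, which chance does in about 5% of groups. AK178107, the record over Aldh2, had a level of 8.914 CPM in IR 1, below the other IR libraries. Snrpg, an Sm ring protein, had 67.41 FPKM in sham 1, above the other sham libraries. Znhit3, the snoRNP assembly factor, had 3.542 FPKM in IR 4, above the other IR libraries.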

How the results depend on the processing

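The count of called short transcripts stayed at 0 under every scaling, filter, tool, block and left-out library tried, as did that of partner mRNAs, except where the p was left unadjusted with a fold change over 2, which gave 4 short transcripts and 1 partner mRNA. Leaving out 1 library at a time gave 0 to 0 for both. With the replicate number as a block, 0 short transcripts and 0 partner mRNAs were called, and 2 short transcripts had an unadjusted p below 0.05, against 6 without it. The numbers do not pair the samples, since same-numbered IR and sham libraries deviated with correlations of -0.01, -0.01, 0.12 and 0.03 over lncRNAs. Over the 24 single RNAs and genes, 367 of 372 alternatives kept direction and side of the threshold, and the 5 that turned round were all of Vaultrc5: -0.0902 with limma on log2(FPKM + 0.1), -0.0901 on log2(FPKM + 1), and left-out libraries, with a range of -0.10 to 0.30. The unadjusted count of short transcripts was 3 with DESeq2 and 8 with limma, and that of snoRNA host genes was 18 with limma. Scaling by the mRNA table, also with at least 10 fragments, was added after seeing the data and called 0. Depth limits these comparisons, since 59 of the 83 detected transcripts averaged under 1 fragment.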

Other observations

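Transcripts of snoRNA host genes, such as the Snhg genes, were also read from the lncRNA table. Several are isoforms of the same gene, as for Gas5 and Snhg1, so they are not independent and do not count genes. Of 52 transcripts tested, 8 had a log2 fold change above 0 and 44 below, with a median of -0.55. An unadjusted edgeR p below 0.05 was reached by 7 (13.5%), all lower in IR, against 7.06% of all lncRNAs, and none was called. The count was 2 without sham 1, 3 without IR 2 and 15 without IR 4, and 13 with limma.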
